A study of Homo sapiens with 9 samples.

Results

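Cyclins and CDK inhibitor genes were examined for binding by the SWI/SNF chromatin remodeling complex. The set held 10 genes, CDKN1A, CDKN1B, CDKN1C, CDKN2A, CDKN2B, CCND1, CCND2, CCND3, CCNE1 and RB1, picked because SWI/SNF is known to act on cell cycle genes. A peak belonged to a gene when the nearest-gene column of the authors' annotated list named it. Of 34575 ARID peaks in 3 lists, 33 were assigned to 6 of the 10 genes, and 4 genes had none.

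The cells were HepG2, an established human liver cancer line, grown without any treatment or genetic change. Formaldehyde-fixed chromatin was cut with micrococcal nuclease and precipitated with 1 antibody for each of 4 subunits, with 2 libraries for each antibody and 1 input library. ARID1A, ARID1B and ARID2 are mutually exclusive subunits that mark different forms of the complex, and SNF5 (BAF47, SMARCB1) is a core subunit. The authors merged both libraries of an antibody before calling peaks, so each subunit is represented by 1 list. No value below has a replicate error, the depth behind the lists is unknown, and a subunit cannot be told apart from its antibody or its depth. No comparison below was given a test, and the main counts at the 10 genes stand beside the same shares over whole lists.

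Cyclins activate the cyclin-dependent kinases (CDKs) that carry a cell through its division cycle. D-type cyclins work with CDK4 and CDK6 early in G1, and cyclin E works with CDK2 at the entry to S phase. Both phosphorylate the retinoblastoma protein RB1, which then releases E2F transcription factors. The CIP/KIP proteins p21, p27 and p57 (CDKN1A, CDKN1B and CDKN1C) bind cyclin and CDK complexes, while the INK4 proteins p16 and p15 (CDKN2A and CDKN2B) bind CDK4 and CDK6. CDKN1A is a well known target of the tumour suppressor p53.

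The sequences below come from the GRCh37 assembly and are written 5′ to 3′ on the strand of the gene. They were chosen because they lie in the bases shared by peaks of all 3 ARIDs at CDKN1A, by ARID1A and ARID2 at CCND1 and CDKN1B, and by ARID1A and SNF5 at CCND3, each without annotated UTR bases. Capitals mark GC boxes (GGGCGG) and CCAAT boxes (CCAAT), read on both strands. The windows lie at chr6:36646291-36646418 for CDKN1A, chr11:69455813-69455874 for CCND1, chr12:12870002-12870301 for CDKN1B (the 300 bases next to the start) and chr6:42018096-42018250 for CCND3 (minus strand).
CDKN1A: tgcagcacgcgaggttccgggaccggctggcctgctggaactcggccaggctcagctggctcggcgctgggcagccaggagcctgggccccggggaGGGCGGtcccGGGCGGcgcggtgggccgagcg
CCND1: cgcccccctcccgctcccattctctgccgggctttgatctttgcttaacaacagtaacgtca
CDKN1B: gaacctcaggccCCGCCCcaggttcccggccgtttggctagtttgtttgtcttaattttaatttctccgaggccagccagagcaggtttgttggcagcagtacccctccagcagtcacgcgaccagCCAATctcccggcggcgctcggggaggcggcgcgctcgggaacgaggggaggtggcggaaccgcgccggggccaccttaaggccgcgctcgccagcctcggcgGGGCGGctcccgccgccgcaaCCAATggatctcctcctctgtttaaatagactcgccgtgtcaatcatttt
CCND3: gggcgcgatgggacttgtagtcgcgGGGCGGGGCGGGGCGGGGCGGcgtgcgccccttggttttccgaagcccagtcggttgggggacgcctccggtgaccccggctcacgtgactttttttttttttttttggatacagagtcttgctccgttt

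The CDKN1A window held 2 GC boxes, the CDKN1B window 2 GC boxes and 2 CCAAT boxes, and the CCND3 window 4 GC boxes that run into each other. The CCND1 window held neither. Among windows of the same length centred on all ARID1A peaks, a GC box occurred in 32.2% at the CDKN1A length of 128 bases, in 53.1% at the CDKN1B length of 300 bases and in 36.7% at the CCND3 length of 155 bases. A CCAAT box occurred in 26.6% of windows of 300 bases. The same search found no AP-1 motif (TGANTCA), E2F motif (TTTGGCGC or TTTCGCGC) or TATA box (TATAAA) in any of the 4 windows. In windows of 300 bases, the longest length, over all ARID1A peaks these occurred in 6.49%, 1.15% and 5.75%. At the shortest length, the 62 bases of CCND1, they occurred in 1.26%, 0.218% and 1.03%.

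Binding was spread unevenly over the 10 genes. CDKN1A alone took 15 of the 33 peaks (45.5%), CCND1 took 6, CDKN1B took 5, CCND3 and CCNE1 took 3 each, and RB1 took 1. CDKN1C, CDKN2A, CDKN2B and CCND2 took none. By role, the CIP/KIP inhibitors held 20 peaks, the D-type cyclins 9, cyclin E 3, the pocket protein gene RB1 1 and the INK4 inhibitors 0.

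**Figure D1:**
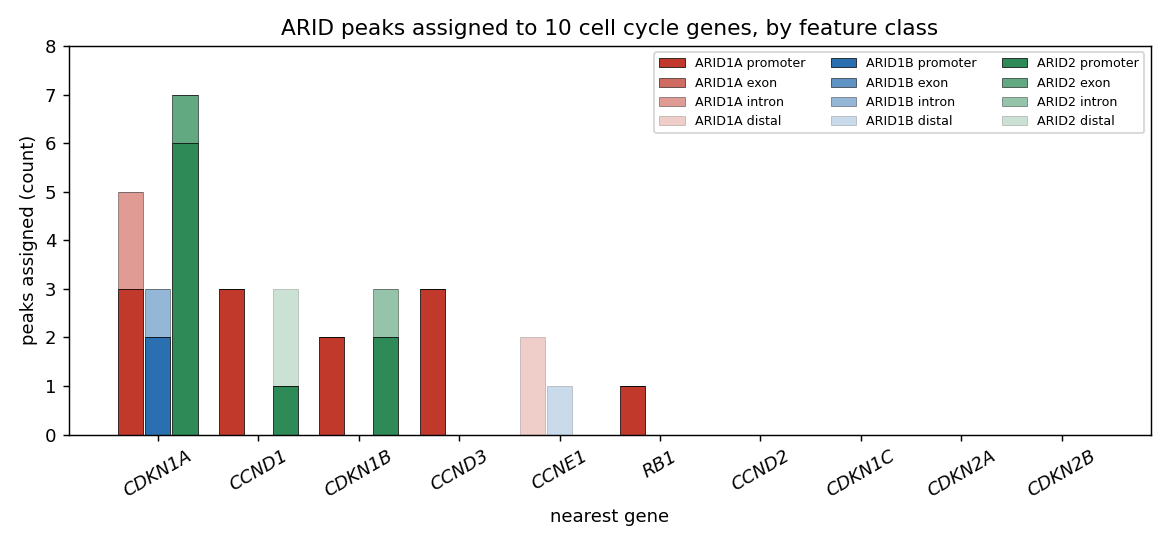
Number of peaks assigned to each of the 10 genes (vertical axis, count), with 1 bar for each ARID list and paler shades for exon, intron and distal peaks. CDKN1A has 5 ARID1A, 3 ARID1B and 7 ARID2 peaks, and 4 genes have no bar.

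The ARID1A list reached 6 of the 10 genes, beside 33.2% of 20149 protein-coding genes with an assigned ARID1A peak. ARID2 reached 3 of the 10 (29.7% of protein-coding genes) and ARID1B reached 2 (17.1%). When peaks within 5000 bp of a gene body were counted whatever gene they were assigned to, ARID1A reached 5 of the 10 (44.0% of protein-coding genes by the same rule), ARID2 4 (39.9%) and ARID1B 5 (23.8%). Peaks of all 3 ARIDs were assigned to CDKN1A only, 1 of 10 genes beside 10.1% of protein-coding genes. Within 5000 bp of the gene body, whatever the assignment, peaks of all 3 lay at CDKN1B and CCND1 as well. The share of protein-coding genes with all 3 by that rule was not computed. The share of protein-coding genes with no ARID peak was 56.3%, and 4 of these 10 genes had none. ARID1A and ARID2 were both assigned at CDKN1A, CDKN1B and CCND1, and the share of protein-coding genes with both was not computed. These were also the 3 genes with the most peaks, a total that counts both lists. Counted over the 12428 gene names in the lists, the median name had 2 peaks. Counting the gene itself each time, 114 names (0.917%) had at least the 15 peaks of CDKN1A. At least the 6 of CCND1 were held by 9.84% of names, and at least the 5 of CDKN1B by 14.5%.

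CDKN1A, which encodes p21, was the only gene of the set that was assigned peaks of all 3 ARIDs. It lies on chromosome 6 from 36644237 to 36655114 on the plus strand (ENSG00000124762.14_6), with 8 annotated transcript starts in 2 groups. The canonical start is at 36646491, and the most upstream one is at 36644237. Positions below are bp from the canonical start, with minus signs upstream.

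A single ARID1A peak of 2189 bp ran from -607 to 1581 across the canonical start. Only 15 of the 12852 ARID1A peaks were at least as wide, counting this one. It was overlapped by all 3 ARID1B peaks of the gene, at -778 to -542, -200 to 13 and 1442 to 1556. ARID2 peaks at -477 to -73 and 807 to 969 also overlapped it. Merged, these 6 peaks formed 1 region of 2360 bp with all 3 ARIDs, from 36645713 to 36648072. It was the only such region among the 24 merged regions assigned to the 10 genes. Over the whole series 7.55% of 25247 merged regions held all 3. The bases that 1 peak of each ARID shared lay from -200 to -73, just before the start, and are the CDKN1A sequence printed above, in which 78.9% of bases were G or C. The ARID1A, ARID1B and ARID2 peaks that share them each also held an annotated start of another gene, DINOL.

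The upstream start of CDKN1A had its own peaks, and these were of ARID1A and ARID2. ARID2 lay at -2850 to -2711 and at -2417 to -2072, the latter across the start at 36644237, while ARID1A lay between them at -2603 to -2463. None of these 3 peaks overlapped another ARID or SNF5, although the gaps between neighbours were 107 and 45 bp. Further down, ARID1A (-1666 to -1343) and ARID2 (-1591 to -1408) overlapped each other and an SNF5 peak with a score of 26. The score is the whole number that the peak caller gave each SNF5 peak, with a median of 19 over the list (quartiles 16 and 24).

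The ARID2 peak over the upstream start was searched, after its position was seen, for a core of the p53 binding motif (ACATGT, a palindrome). It held 2 matches, in capitals in this sequence from chr6:36644224-36644247 on the plus strand, at -2267 to -2244.
CDKN1A upstream site: aggaACATGTcccaACATGTtgag
At least 1 match occurred in 4.69% and at least 2 in 0.3% of 12993 windows of the same 346 bases centred on ARID2 peaks. Of the 33 assigned peaks, this was the only 1 with a match. A match of letters does not show that p53 was bound.

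Within the gene, ARID1A (1878 to 2118) and ARID2 (1774 to 1922, the only exon-class peak of the set) overlapped each other, and a last ARID1A peak lay in an intron at 3783 to 3977. An SNF5 peak of 3552 bp, with a score of 25, ran from -1081 to 2470 across the canonical start. In the SNF5 list of 20718 peaks, 160 were at least that wide. A further SNF5 peak, with a score of 15, lay over the last ARID1A peak. Of the 15 ARID peaks at CDKN1A, 12 overlapped SNF5 and 10 overlapped another ARID.

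**Figure D2:**
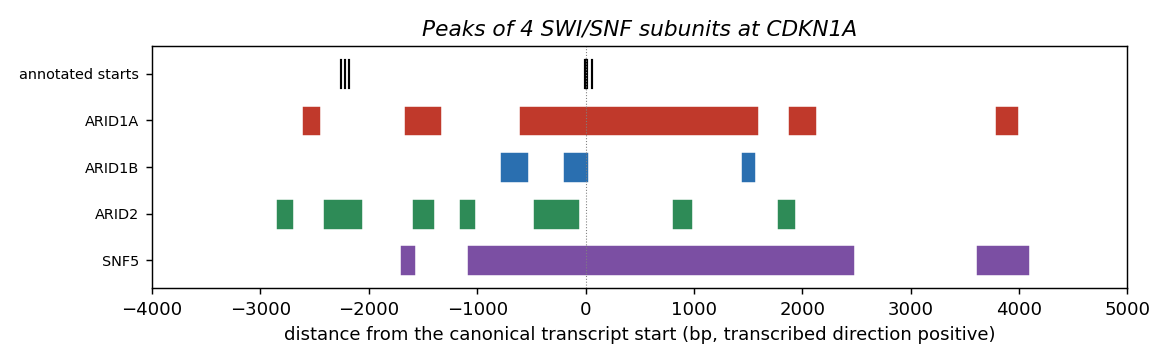
Peaks of the 4 subunits at CDKN1A against distance from the canonical transcript start in bp, with annotated transcript starts as ticks in the top row. The ARID1A peak from -607 to 1581 and the SNF5 peak from -1081 to 2470 lie over the canonical start, and each of the 3 ARID1B peaks overlaps that ARID1A peak.

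CDKN1B, which encodes p27, had ARID1A and ARID2 peaks of nearly the same extent over its canonical start. The gene is on chromosome 12 with its canonical start at 12870302 on the plus strand (ENSG00000111276.12_10). The ARID1A peak spanned -625 to 62 (688 bp) and the ARID2 peak -654 to 70 (725 bp). Only 548 of the 12995 ARID2 peaks and 1091 of the ARID1A peaks were at least as wide. On either side, ARID2 lay at -1220 to -901 and 1663 to 2109, and ARID1A at 1131 to 1432, each overlapped by no other ARID. The last 2 were 230 bp apart. An SNF5 peak of 4155 bp with a score of 22 ran from -1687 to 2467 under all 5 of them, and 91 SNF5 peaks were at least as wide.

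No ARID1B peak was assigned to CDKN1B. The nearest was at 8011 to 8254, beyond the 3′ end of the gene, and was assigned to RP11-59H1.3. There it overlapped an ARID1A peak at 8003 to 8469, which also overlapped an ARID2 peak at 8263 to 8372. All 3 ARIDs thus met within 5000 bp of the gene body, in peaks assigned to another name. From 3754 to 8885 there were also 6 ARID2 and 2 ARID1A peaks, assigned to RP11-180M15.4 or RP11-59H1.3, each on an SNF5 peak. Assignment to the nearest start thus divided a row of peaks among 3 names. Far upstream but inside the annotated span of CDKN1B, an ARID1A peak of 113 bp and an ARID2 peak of 74 bp were assigned to GPR19.

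CDKN1C, the remaining CIP/KIP gene, which encodes p57 (chromosome 11, 2904443 to 2907005, minus strand), was assigned no ARID peak. The nearest ARID2 and SNF5 peaks were 17084 and 17196 bp from any of its starts. The nearest ARID1A and ARID1B peaks were 153856 and 153840 bp away.

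The INK4 genes lie next to each other on chromosome 9, CDKN2A from 21967751 to 21995300 and CDKN2B from 22002902 to 22009304, both on the minus strand. Neither had a peak of any of the 4 subunits within 5000 bp. The nearest peak was of ARID1B, 90217 bp from a start of CDKN2A and 76213 bp from a start of CDKN2B, and was assigned to the antisense gene CDKN2B-AS1. For SNF5 the distances were 635008 and 670812 bp, and for ARID1A 635050 and 670854 bp. ARID2 was farthest, at 1286212 and 1322016 bp.

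**Figure D3:**
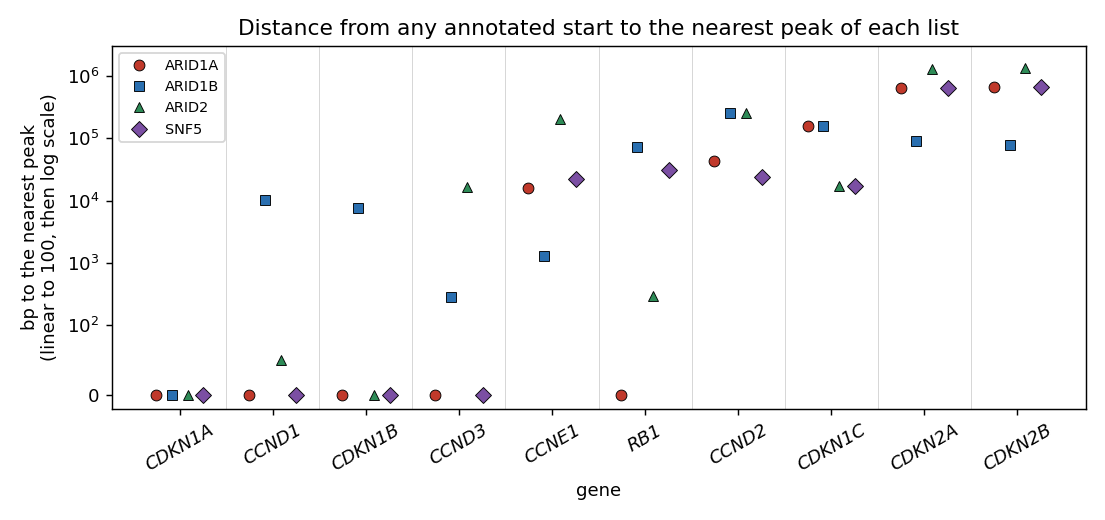
Distance in bp from any annotated start of each gene to the nearest peak of each list, whatever gene that peak was assigned to, on an axis that is linear up to 100 bp and logarithmic above. All 4 subunits cover a start of CDKN1A, whereas the nearest peak to CDKN2A or CDKN2B is an ARID1B peak, 90217 and 76213 bp away.

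Among the D-type cyclins, CCND1 and CCND3 were bound at their starts and CCND2 was not. CCND1 encodes cyclin D1 (chromosome 11, 69455924 to 69469242, plus strand). An ARID1A peak at -111 to 261 covered its start and overlapped an ARID2 peak at -238 to -50, and the bases they shared are the CCND1 sequence above, with 56.5% G and C. An SNF5 peak of 403 bp from -184 to 218, with a score of 28, lay on both. Small ARID1A peaks flanked this site at -553 to -465 and 558 to 707, and an ARID2 peak of 52 bp, the least width in that list, lay at -1453 to -1402.

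None of these 3 small peaks overlapped SNF5, but each was within 233 to 316 bp of an SNF5 peak. The other ARID2 peak assigned to CCND1 was distal, with its midpoint at -24691, and lay 22308 bp from the nearest SNF5 peak. Some SNF5 peaks at this gene had no ARID peak on them. They had scores of 18, 26, 25 and 22 and lay at -2250 to -1770, 941 to 1059, 1926 to 2217 and just past the 3′ end. An ARID1B peak of 54 bp and an ARID1A peak of 129 bp overlapped each other about 17 kb downstream and were assigned to ORAOV1. SNF5 peaks without an ARID were not particular to CCND1. Of 19 SNF5 peaks within 5000 bp of the gene bodies of the set, 7 overlapped no ARID peak. Those not at CCND1 lay at CDKN1A, CCND2 and RB1. The authors report ARID overlap for most but not all SNF5 peaks.

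CCND3, which encodes cyclin D3 (chromosome 6, 41902672 to 42018095, minus strand), was assigned 3 ARID1A peaks and no other ARID. Each lay by a different start of a gene with 18 annotated starts. The most upstream peak, 351 bp from 42017901 to 42018251, covered the first start of CCND3 and a start of TAF8, which is transcribed in the other direction. It overlapped an SNF5 peak of 719 bp with a score of 27. An ARID1B peak of 108 bp lay 124 bp away from it and was assigned to TAF8, and the same SNF5 peak overlapped it. The other 2 ARID1A peaks, from 42016302 to 42016483 and from 41908888 to 41909051, were 1275 and 19322 bp from the nearest SNF5 peak.

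CCND2, which encodes cyclin D2 (chromosome 12, 4378937 to 4414519, plus strand), had no ARID peak within 5000 bp of its body. The nearest was an ARID1A peak 42672 bp from a start. A single SNF5 peak of 189 bp with a score of 21 lay near the 3′ end, 29171 bp from the canonical start.

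CCNE1, which encodes cyclin E1 (chromosome 19, 30302898 to 30315219, plus strand), was the only bound gene of the set with no peak over a start. Its 3 peaks were all in the distal class and did not overlap one another. An ARID1B peak of 52 bp lay at -1350 to -1299 and an ARID1A peak of 53 bp at -15724 to -15672, each of the least width in its list. The other, an ARID1A peak of 189 bp at 32469 to 32657 and so past the 3′ end of the gene, was the only one that overlapped SNF5, with a score of 23. The nearest ARID2 peak was 205763 bp from a start of the gene. No SNF5 peak lay within 5000 bp of the gene body.

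RB1, the pocket protein gene that D-type cyclins and cyclin E act on (chromosome 13, 48877880 to 49173572, plus strand), was assigned a single ARID1A peak of 508 bp. It ran from -52 to 455 over starts of RB1 and of another annotated gene, RB1-DT, and 74.4% of its bases were G or C. An ARID2 peak of 246 bp lay 253 bp upstream of it, at -551 to -306, and was assigned to LINC00441, a non-coding gene that starts in the opposite direction. Neither overlapped SNF5. The nearest SNF5 peak was 66722 bp from the ARID1A peak. Other peaks inside the long RB1 gene were assigned to genes within or beside it, LPAR6 and RCBTB2.

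**Figure D4:**
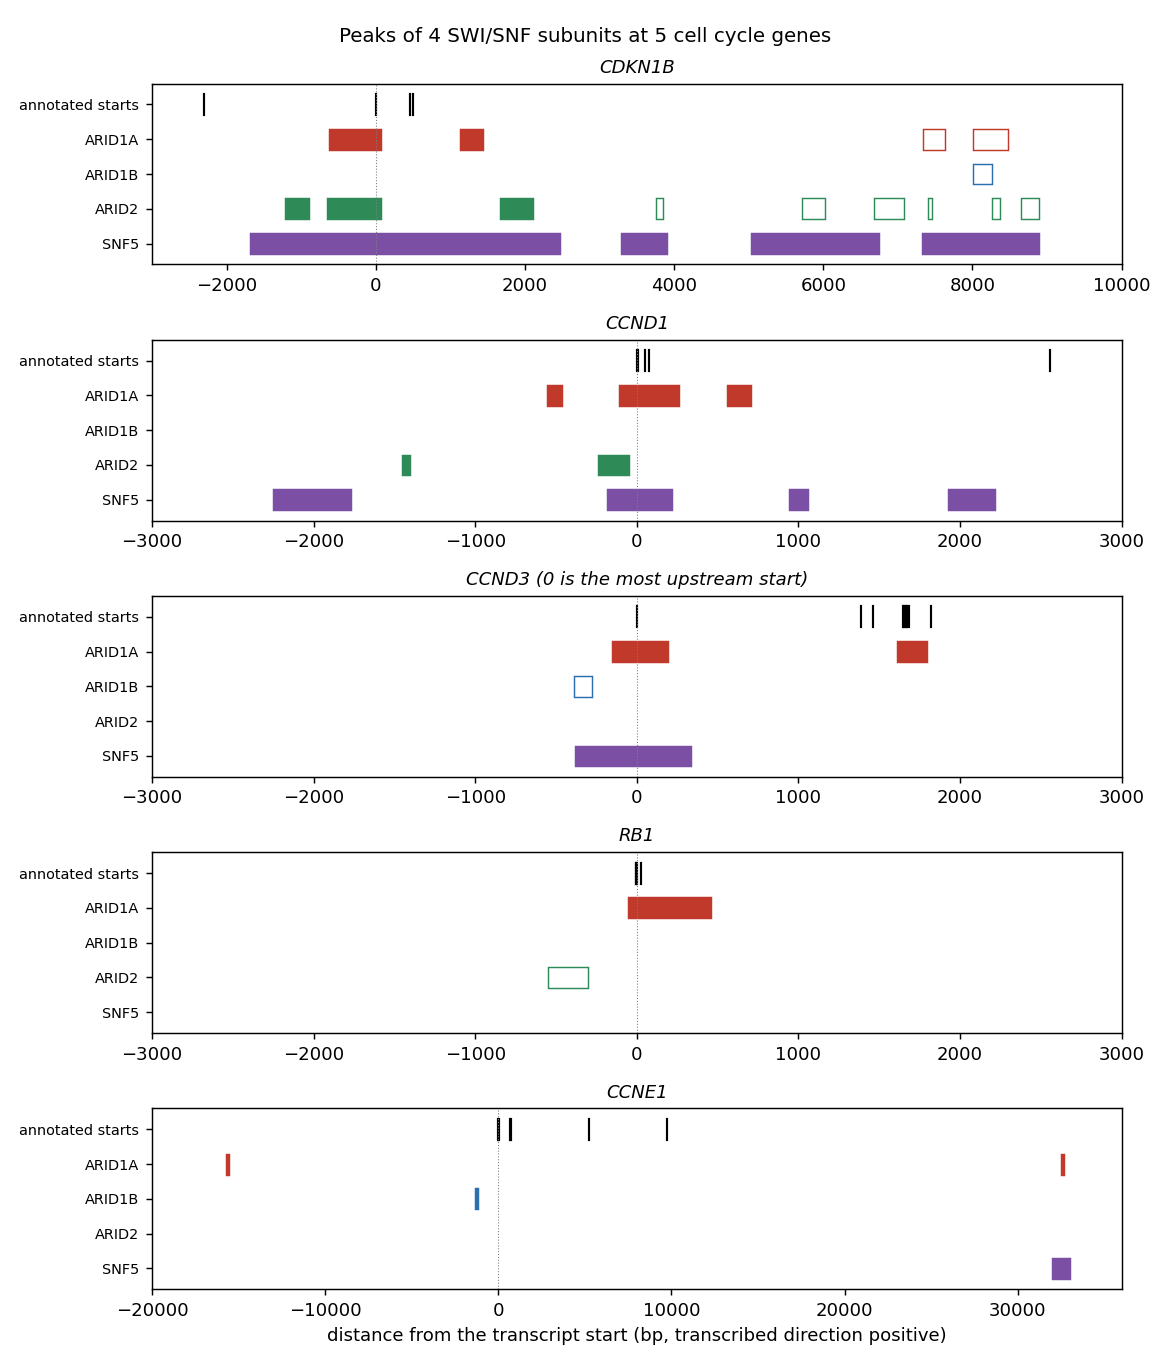
Peaks at CDKN1B, CCND1, CCND3, RB1 and CCNE1 against distance from a transcript start in bp (the most upstream start for CCND3). Filled bars of the ARID rows were assigned to the gene and open bars to another gene, and bars narrower than 0.3% of the axis are drawn at that width. ARID1A covers a start in the first 4 panels and none at CCNE1.

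The 33 peaks were next set beside their whole lists, by the feature class that the lists give (promoter, exon, intron or distal). The lists do not define the promoter class. Peaks with a deposited distance of 1229 bp (ARID1B, CCNE1) and 1356 bp (ARID2, CCND1) were distal. Both distances fall inside the promoter window stated in the paper, so the class follows another rule. Its shares over the lists are even so higher than the paper's for ARID1B and ARID2, and why was not tested. The promoter class held 12 of 16 ARID1A peaks (72.6% over the list), 2 of 4 ARID1B peaks (37.9%) and 9 of 13 ARID2 peaks (67.0%). SNF5 overlapped 9 of the 16 ARID1A peaks, beside 71.3% of that list (Wilson 95% interval 70.5 to 72), 3 of the 4 ARID1B peaks, beside 62.9% (61.9 to 63.9), and 9 of the 13 ARID2 peaks, beside 67.2% (66.4 to 68). The intervals cover counting error over peaks only. Another ARID overlapped 5 ARID1A peaks (47.6% over the list), 3 ARID1B peaks (40.1%) and 6 ARID2 peaks (46.9%). With 4 to 16 peaks in a list, and several of them at CDKN1A, these shares describe single loci and were not tested.

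SNF5 was also set beside the merged regions. Of the 24 merged regions, 5 held 2 or 3 ARIDs, 3 of them at CDKN1A and 1 each at CDKN1B and CCND1, and SNF5 overlapped all 5, beside 90.4% of such regions in the whole series. It overlapped 7 of the 19 regions with 1 ARID, beside 49.7%. The 7 SNF5 peaks lying on assigned ARID peaks had scores of 15 to 28, with a median of 25, and 6 were above the list median. These 7 were picked for lying on an ARID peak, whereas the list median covers SNF5 peaks with and without one. Scores of all SNF5 peaks on ARID peaks were not computed, so the difference cannot be ascribed to these genes.

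The median width was 218 bp (53 to 2189) for the 16 ARID1A peaks, where the list median was also 218 bp. For the 4 ARID1B peaks it was 164.5 bp (52 to 237) beside 164 bp, and for the 13 ARID2 peaks 189 bp (52 to 725) beside 189 bp. The widest peaks lay at CDKN1A for ARID1A and at CDKN1B for ARID2, and the narrowest at CCNE1 and CCND1. The content of G and C ranged from 46.4% to 79.4% for ARID1A (median 63.8%, list 64.1%), from 45.1% to 76.6% for ARID1B (52.9%, list 52.1%) and from 40% to 68.8% for ARID2 (58.5%, list 57.2%).

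**Figure D5:**
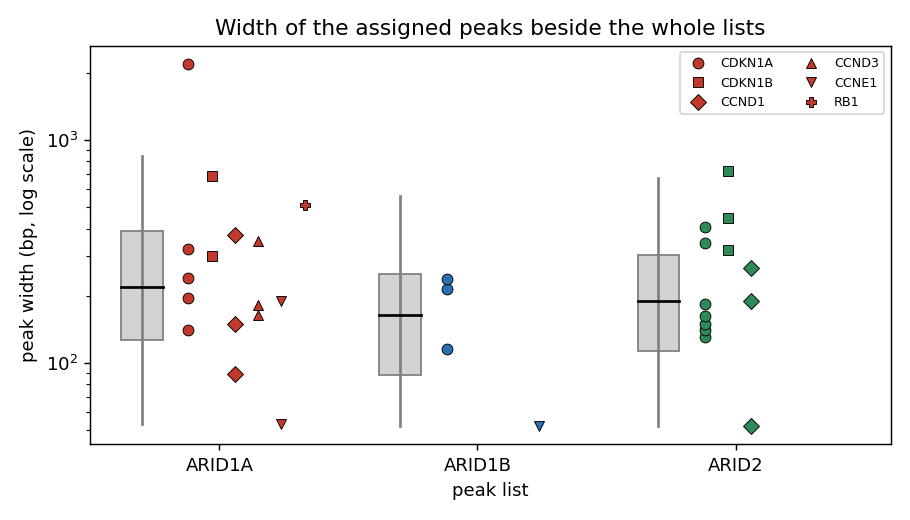
Width of each assigned peak in bp on a log scale, by list, with a marker for each gene. Grey boxes give the quartiles and median of the whole list and grey lines its 5th to 95th percentiles. The ARID1A peak of 2189 bp at CDKN1A stands above the line, and the peaks of CCNE1 at 52 and 53 bp sit at its foot.

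A wider list of 49 genes was set beside the 10. It took in cyclins and CDKs by family along with related genes, and not all of them act mainly in the cell cycle, CCNT2 and CDK12 among them. ARID1A was assigned to 31 of them (63.3%, beside 33.2% of protein-coding genes), ARID2 to 29 (59.2%, beside 29.7%) and ARID1B to 11 (22.4%, beside 17.1%). All 3 were assigned to 10 of the 49, beside 10.1%, and none to 13, beside 56.3%. This list was chosen with earlier results known and its counts were not tested. As for the 10 genes, the background covers all protein-coding genes, expressed or not, and was not matched for expression. The authors report that ARIDs bound most expressed starts and few transcripts that were not expressed. Among 15 other cyclins 8 had ARID1A, 9 ARID2 and 2 ARID1B. Among 10 kinases the counts were 7, 5 and 4, and among 12 pocket protein, E2F and DP genes 7, 7 and 3. Among 9 genes of upstream control and turnover they were 6, 5 and 1. The 3 further inhibitor genes all had ARID1A and ARID2, including CDKN3 with all 3 ARIDs.

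The genes of this list with all 3 ARIDs were CCNG2, CCNT2, CDK1, CDK6, CDK12, CDK13, CDKN3, E2F3, E2F6 and MDM2. CDK6, the partner of the D-type cyclins, had 4 ARID1A, 3 ARID1B and 4 ARID2 peaks. MDM2, whose product targets p53 for destruction and which is itself a p53 target, had 2, 1 and 7. CDK1, the mitotic kinase, had 1 of each, all in the promoter class and none overlapping SNF5.

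The pattern of CDKN1A, taken as 12 counts (3 ARID lists by 4 feature classes), was closest to that of NFIA, with 4 ARID1A, 3 ARID1B and 5 ARID2 peaks and a summed difference of 5 peaks. Next came 11 names tied at a difference of 6, of which AJUBA (5, 3 and 7 peaks) and AP4S1 (4, 3 and 4) are the first by alphabet.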

How the data were processed

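Reads had been mapped by the authors with bowtie2 against hg19, and duplicates discarded, per the methods. The 2 libraries of an antibody were pooled, MACS2 called broad peaks, and nearby peaks were joined and blacklisted ones dropped. Feature class and nearest gene came from Gencode V16. The deposited lists hold positions and distances in bp, and the SNF5 list a whole-number score from the peak caller. Use of the input as a control is not given in the sources used here. Deposited distances matched the distance from the peak midpoint to the nearest annotated start within 5 bp for 61.1% of peaks, and from the peak edge for 4.74%. The chromatin state column was not used, since 49.7% of distal and 67.2% of promoter ARID1A peaks carried the active promoter state.

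Gene positions and bases came from GRCh37, the same assembly as hg19, with Gencode v44 lifted to it. Directly, 74.9% of the deposited gene names matched that annotation, and 80.7% matched with RefSeq synonyms. Background shares of genes with an assigned peak are therefore low estimates, and the share with no ARID peak is a high one. Shares within 5000 bp of a gene body rest on positions and do not depend on names. Overlap meant at least 1 shared bp, and starts are printed counted from 1. Overlap and merging functions were tested on simulated peaks. Python 3.11.15, pandas 2.3.3, pysam 0.24.0 and samtools 1.23.1 were used. Named were the 10 genes, genes of the wider list with all 3 ARIDs, genes whose assigned peaks lay within 5000 bp of a member, and the 3 names closest to CDKN1A in pattern. CDKN2B-AS1, RB1-DT and DINOL were named after their values were seen. The members and lists were chosen with earlier results of these data known.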

Additional observations from a re-analysis of the deposited data

How the results depend on the processing

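Of 44 alternatives to 16 counts, listed with the design, 26 stayed within 1.5 times the count reported and 18 did not. Demanding a reciprocal overlap of at least 50% lowered the peaks overlapping SNF5 from 9 to 2 for ARID1A, from 3 to 0 for ARID1B and from 9 to 0 for ARID2, and those overlapping another ARID from 5 to 2, from 3 to 0 and from 6 to 2. SNF5 peaks were wider (median 535 bp), so this rule removes narrow peaks lying inside them. Allowing a gap of at most 1000 bp raised the peaks near another ARID to 11 for ARID1A and 12 for ARID2. Counting peaks within 5000 bp of the gene body gave 7 ARID1B peaks at 5 genes and 22 ARID2 peaks, against 4 at 2 genes and 13 by assignment. Joining ARID2 peaks at most 1000 bp apart left 6. Keeping the widest 50% of peaks left 8 ARID1A peaks, 2 ARID1B peaks at 1 gene and 7 ARID2 peaks. The assigned peaks had about the median widths of their lists, so the fall in these peak counts was built into that filter. With the promoter class replaced by a distance to the start of at most 5000 bp, ARID1B had 4 promoter peaks, and of at most 500 bp, ARID2 had 5. No paired analysis was possible because both libraries of an antibody were merged before peaks were called, and for the same reason no replicate could be left out. Depth was unknown, so a gene without a peak is one at which none was called in these lists.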
